A study of Mus musculus with 2 samples.

Results

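The circadian clock genes examined here were Clock, Arntl, Per1, Per2, Per3, Cry1, Cry2, Bhlhe40, Bhlhe41 and Ciart, taken as every probe set whose single annotated gene is one of these 10. They held 22 of the 34945 probe sets assigned to 1 gene, and 10 of the 18193 genes so represented. The measurements came from 3T3-L1 cells, mouse preadipocytes in continuous culture, which insulin, dexamethasone and the phosphodiesterase inhibitor 3-isobutyl-1-methylxanthine drive towards the fat cell state. Preadipocytes received siRNA against Phf21a, which encodes the histone reader BHC80 of a corepressor complex built around the demethylase LSD1, or a control siRNA (siGL3). Cells of both groups were grown in DMEM with 25 mM glucose and 10% FBS, were induced 24 h after transfection, and were harvested another 24 h later. Total RNA of each was hybridised to 1 array, so each group has n = 1, and the labels do not say whether several cultures were pooled. No value below has a replicate error, no test was run, and each ratio compares these arrays and not the conditions. Because each group was sampled at 1 time, the values are levels at that time, and no rhythm was measured.

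The clock is a loop of transcription in which CLOCK and BMAL1 (the product of Arntl) pair, bind E-box sequences and switch on the Per and Cry genes. PER and CRY proteins then gather, enter the nucleus and block CLOCK and BMAL1, so that their own messages fall until the proteins are degraded. BHLHE40, BHLHE41 and CIART are further repressors that the same pair of activators induces, and a side loop of REV-ERB and ROR nuclear receptors sets the level of Arntl. Fibroblasts and preadipocytes hold such clocks, and glucocorticoids such as dexamethasone, agents that raise cyclic AMP, and serum are known to reset them.

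Promoter sequences are shown because the E-box is the site through which the loop closes on most of these genes. RefSeq (GRCm38.p6) gave 12 windows before annotated starts for 8 of the 10 genes, and those of Per2 and Bhlhe40 were not matched. In the 250 bases before a start, the E-box CACGTG, which reads alike on both strands, occurred in 1 window each of Ciart, Per1, Cry1 and Bhlhe41, hence in 4 of the 12 windows, against 6.02% of the 32851 windows of all genes. Ciart had 3 E-boxes, beginning 116, 58 and 44 bases before the start. Cry1 had 1 at 60 bases, together with the variant CACGTT, searched on both strands, at 79 bases. Per1 had 1 at 166 bases in the first of its 2 windows, and Bhlhe41 had 1 at 153 bases. The window of Per3 held no E-box but 2 copies of the D-box TTATGTAA, the site of DBP, TEF, HLF and NFIL3, at 205 and 158 bases, a motif found on either strand in 0.819% of all windows. The variant CACGTT occurred in Cry2 as well and in 3.85% of all windows. The cyclic AMP response element TGACGTCA occurred in 0 of the 12 windows and in 1.55% of all, and the core AGGTCA of the ROR site in 1 window each of Clock and Per1 and in 14.0% of all. No motif searched overlapped another in the windows printed. These matches describe letters, and binding was not measured. Capitals mark the E-box, the CACGTT variant in either strand and the D-box, and each window is printed 5′ to 3′ on the strand of the gene.
Ciart (chr3:95882229-95882478, minus strand): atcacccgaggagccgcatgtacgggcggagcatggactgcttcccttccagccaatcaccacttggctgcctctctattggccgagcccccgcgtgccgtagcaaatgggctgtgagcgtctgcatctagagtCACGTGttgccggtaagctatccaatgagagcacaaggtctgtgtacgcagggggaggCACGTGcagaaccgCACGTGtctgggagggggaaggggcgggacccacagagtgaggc
Cry1 (chr10:85185055-85185304, minus strand): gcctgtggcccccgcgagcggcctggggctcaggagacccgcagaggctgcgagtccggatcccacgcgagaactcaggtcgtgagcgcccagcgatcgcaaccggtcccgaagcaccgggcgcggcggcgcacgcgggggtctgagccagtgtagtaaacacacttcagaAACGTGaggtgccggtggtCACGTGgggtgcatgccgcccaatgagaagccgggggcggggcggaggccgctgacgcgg
Per1 (chr11:69098699-69098948, plus strand): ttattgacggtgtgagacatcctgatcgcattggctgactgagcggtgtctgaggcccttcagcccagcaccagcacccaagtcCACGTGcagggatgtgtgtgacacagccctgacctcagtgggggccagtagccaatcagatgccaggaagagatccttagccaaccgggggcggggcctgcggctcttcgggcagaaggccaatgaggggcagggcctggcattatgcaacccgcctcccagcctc
Bhlhe41 (chr6:145865421-145865670, minus strand): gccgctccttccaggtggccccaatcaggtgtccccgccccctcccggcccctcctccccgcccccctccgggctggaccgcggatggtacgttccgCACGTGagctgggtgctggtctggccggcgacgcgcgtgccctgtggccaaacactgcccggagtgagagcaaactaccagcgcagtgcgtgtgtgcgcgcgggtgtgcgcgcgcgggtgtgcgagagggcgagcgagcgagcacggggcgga
Per3 (chr4:151044666-151044915, minus strand): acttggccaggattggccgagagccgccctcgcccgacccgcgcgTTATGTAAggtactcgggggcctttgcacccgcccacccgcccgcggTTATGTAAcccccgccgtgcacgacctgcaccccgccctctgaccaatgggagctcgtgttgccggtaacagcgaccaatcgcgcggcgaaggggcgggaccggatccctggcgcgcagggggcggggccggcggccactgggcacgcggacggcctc

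Most clock genes lay close to equal on the arrays, and Bhlhe40 stood furthest from 0. Detection required a signal of 51.3, the median over all signals, on at least 1 array, and the brightest detected probe set stands for its gene. All 10 genes were detected, on 16 of the 22 probe sets. Of the 10, 1 (Bhlhe40) was at least 1.5-fold higher in the Phf21a siRNA array, against 15.1% of all 11301 detected genes, and 0 were at least 1.5-fold lower, against 13.9%. None reached 2-fold, which 5.66% of all detected genes did upward and 5.44% downward. The log2 ratio (Phf21a siRNA over control siRNA) was above 0 in 8 of the 10, against 52.2% of all detected genes, but in 1 of 10 (9.23% of all) when the arrays were scaled to poly-A control RNAs and in 6 of 10 (33.9% of all) when scaled to hybridisation controls. With the mean over each gene's detected probe sets it was above 0 in 6 of 10, against 49.4% of all. Under the deposited scaling, used below unless another is named, their median was 0.30, beside 0.03 over all detected genes. Counted by probe set, 9 of the 16 detected ones were above 0, against 49.6% of all, 1 was at least 1.5-fold higher, against 14.2%, and 2 were at least 1.5-fold lower, against 16.3%. Both of the lower ones, dim probe sets of Arntl and Per3, passed the detection limit on the control array alone, so their direction was set by the filter.

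**Figure D1:**
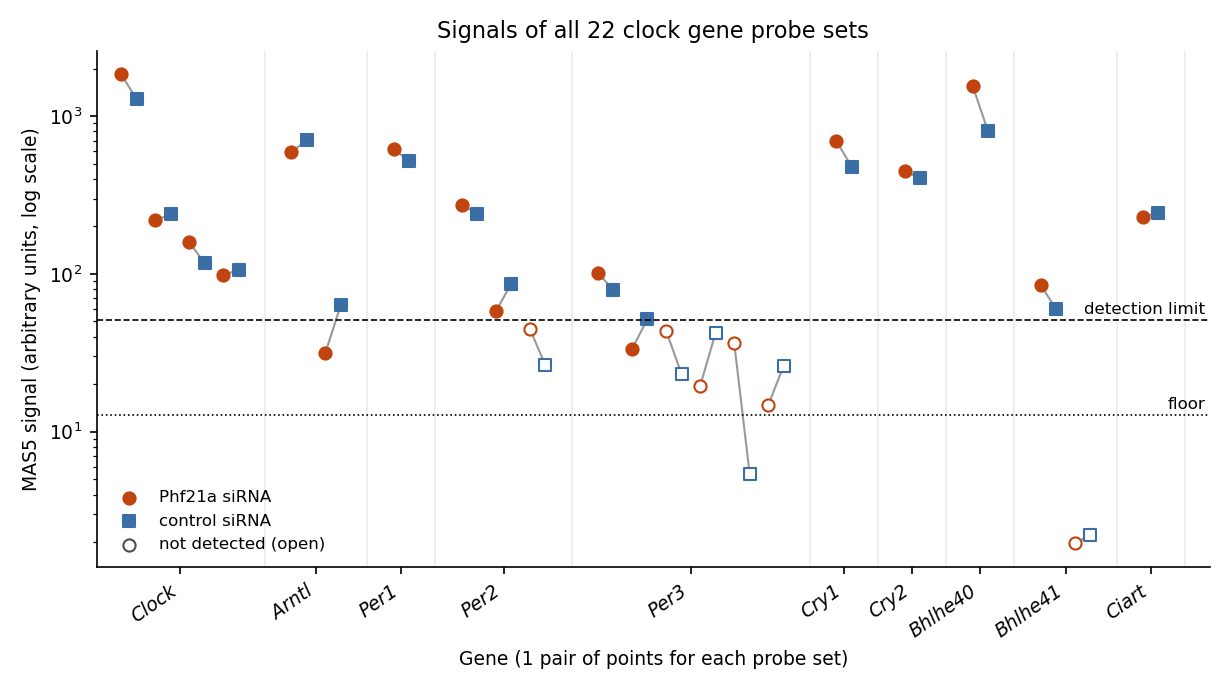
MAS5 signal (log scale, arbitrary units) of all 22 clock probe sets, with Phf21a siRNA as circles on the left and control siRNA as squares on the right of each pair. Open symbols are the 6 probe sets under the detection limit of 51.3 on both arrays (dashed line), and the dotted line is the floor of 12.9. Among pairs over the limit on both arrays the widest gap is that of Bhlhe40, at 1552 with Phf21a siRNA and 800 with control siRNA.

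Among the activators, Clock encodes the partner of BMAL1 that also acetylates histones. On its brightest probe set (1418659_at) the signal was 1842 in the Phf21a siRNA array and 1284 in the control array. That is a log2 ratio of 0.52 ± 0.46, where the figure after ± is the local spread, the scatter of log2 ratios among the 1000 detected probe sets nearest in signal and not an error between cultures. The 3 other probe sets of Clock did not all point the same way. Signals were 159 with Phf21a siRNA and 117 with control siRNA on 1435775_at (0.45 ± 0.61). On 1418660_at they were 218 with Phf21a siRNA and 239 with control siRNA (-0.13 ± 0.57), and 1439314_at had 98.0 with Phf21a siRNA and 107 with control siRNA (-0.12 ± 0.64). So 2 probe sets of the gene read higher and 2 slightly lower in the Phf21a siRNA array, and their mean was 0.18.

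Arntl, which encodes BMAL1, read below 0 on the 1 probe set that passed the detection limit on both arrays. Its brightest (1425099_a_at) had a signal of 594 with Phf21a siRNA and 702 with control siRNA (log2 ratio -0.24 ± 0.52). The dim second one (1457740_at) had 31.8 with Phf21a siRNA, under the detection limit, and 63.9 with control siRNA (-1.01 ± 0.96). The bright probe set differed by less than its local spread. The dim one passed the detection limit on the control array alone, which fixed its direction, so it is no second reading of direction.

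The Per genes encode the PERIOD proteins that nucleate the repressor complex, and Per1 is in addition an early responder to glucocorticoids and cyclic AMP. Per1 (1449851_at) had a signal of 615 in the Phf21a siRNA array and 522 in the control array (0.24 ± 0.53). Per2 had 274 with Phf21a siRNA and 240 with control siRNA on its brightest probe set (1417602_at, 0.19 ± 0.56). A second Per2 probe set (1417603_at) went the other way, with 57.9 with Phf21a siRNA and 86.7 with control siRNA (-0.58 ± 0.61). The third Per2 probe set was under the detection limit, at 44.8 with Phf21a siRNA and 26.4 with control siRNA. Each detected Per1 and Per2 value lay within its local spread.

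Per3, a PERIOD protein that is dispensable for rhythm in mice, was near the limit of the array. Its brightest probe set (1421087_at) had 101 with Phf21a siRNA and 79.1 with control siRNA (0.36 ± 0.64). The only other detected one (1441445_at) passed the limit on the control array alone, with 33.4 with Phf21a siRNA and 51.9 with control siRNA (-0.63 ± 1.14). The remaining 4 were undetected. Of these, 1460662_at had 43.8 with Phf21a siRNA and 23.2 with control siRNA, and 1421086_at had 36.4 with Phf21a siRNA and 5.40 with control siRNA, the control value being under the floor, so no ratio is given. The others were lower with Phf21a siRNA, at 19.5 against 42.4 in control (1442243_at) and at 14.8 against 26.2 in control (1458176_at). The 6 probe sets of Per3 thus split evenly in direction, at signals where log2 ratios scatter widely.

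The cryptochromes are the proteins that bind CLOCK and BMAL1 and hold them inactive. Cry1 (1433733_a_at) had a signal of 694 with Phf21a siRNA and 476 with control siRNA, a log2 ratio of 0.54 ± 0.53 or 1.46-fold. Cry2 (1426383_at) had 446 with Phf21a siRNA and 407 with control siRNA (0.13 ± 0.53). Each gene had 1 probe set, so neither value has a second reading on the array. Cry1 passed its local spread by a small margin and Cry2 lay well inside it.

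Bhlhe40 encodes the repressor also called DEC1, which competes for E-boxes and responds to hypoxia, cyclic AMP and growth factors. Its single probe set (1418025_at) had a signal of 1552 with Phf21a siRNA and 800 with control siRNA. The log2 ratio was 0.96 ± 0.48, or 1.94-fold, well past its local spread. Bhlhe41, which encodes the related repressor DEC2, had 84.5 with Phf21a siRNA and 60.0 with control siRNA on its detected probe set (1421099_at, 0.49 ± 0.61). Its other probe set (1457096_at) was under the floor on both arrays, at 1.96 with Phf21a siRNA and 2.23 with control siRNA. Both DEC genes read higher in the Phf21a siRNA array, Bhlhe40 beyond its local spread and Bhlhe41 within it, except that under poly-A scaling Bhlhe41 was at -0.24 and Bhlhe40 at 0.22.

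Ciart encodes CHRONO, a repressor that binds BMAL1, and is the gene with 3 E-boxes in its window. Its only probe set (1435188_at) had a signal of 230 with Phf21a siRNA and 245 with control siRNA (-0.09 ± 0.56). The 4 genes with an E-box in the windows above therefore spanned log2 ratios of -0.09 for Ciart, 0.24 for Per1, 0.49 for Bhlhe41 and 0.54 for Cry1. Over the brightest probe sets of the 10 genes, Bhlhe40, Cry1 and Clock exceeded their local spread, which is 3 of 10, against 33.9% of all detected genes.

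**Figure D2:**
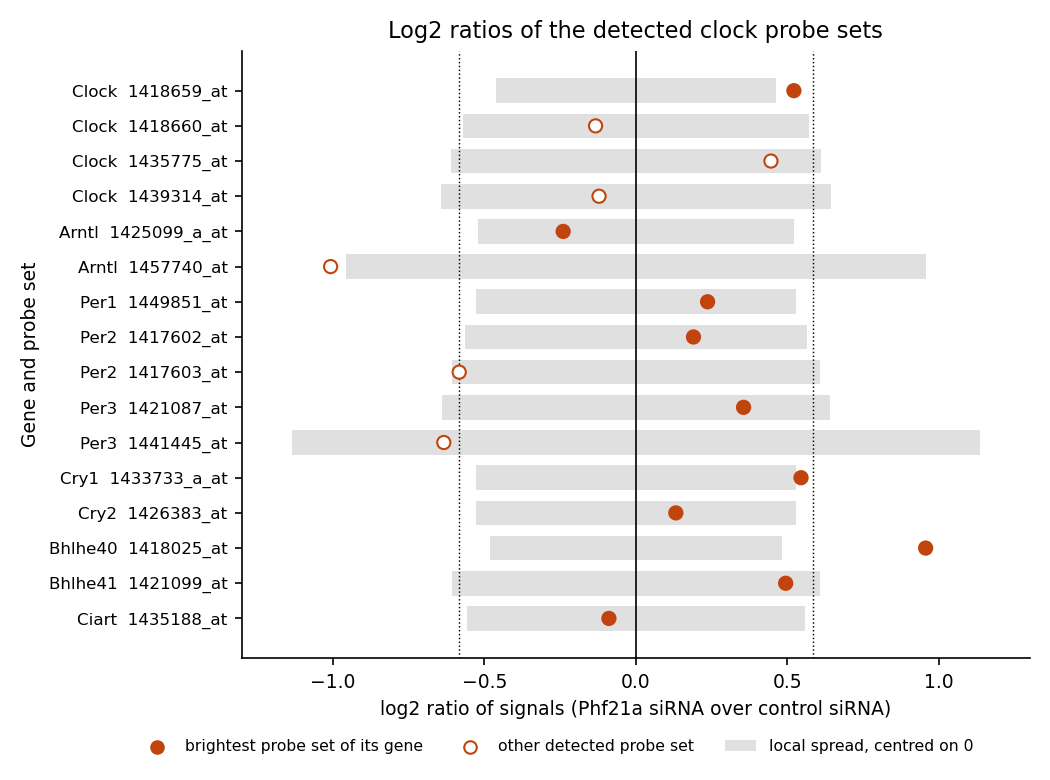
Log2 ratio (Phf21a siRNA over control siRNA) of the 16 detected clock probe sets, filled for the brightest of each gene, with the local spread as a grey bar around 0 and dotted lines at 1.5-fold. Bhlhe40 at 0.96 is the point furthest outside its bar, and the probe sets of Clock, Per2 and Per3 fall on both sides of 0.

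**Figure D3:**
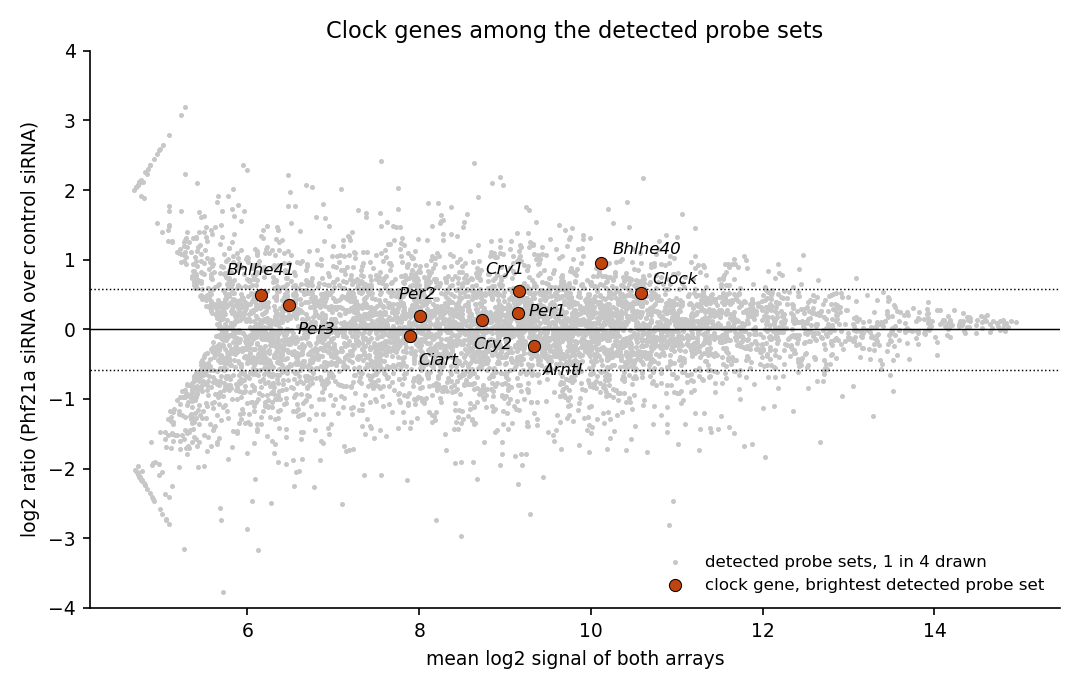
Log2 ratio (Phf21a siRNA over control siRNA) against mean log2 signal for 1 in 4 of the detected probe sets (grey) and for the brightest probe set of each clock gene (red), with dotted lines at 1.5-fold. Of the 10 clock genes, 9 lie inside the band and Bhlhe40 lies above it.

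Partners in the side loop and around it were mostly below 0. Besides REV-ERB and ROR genes the list holds others, among them Arntl2, Timeless and Tipin. Of the 8 with a probe set 6 were detected, 5 of these below 0, against 5399 of all 11301 detected genes. Their median log2 ratio was -0.34. It lies between Arntl2 (-0.34) and Timeless (-0.33), which are not receptors of the side loop. That median stayed below 0, and below the median of all detected genes, under each of the 12 settings of scaling, floor, probe set choice and detection. With the mean over probe sets 4 of the 6 genes were below 0 and 2 above, against 49.4% of all above 0. At 1.5-fold, 0 of the 6 were higher and 1 was lower, against the same 15.1% and 13.9% of all detected genes, the shares that stand beside each list below. Nr1d1, which encodes the repressor REV-ERB alpha, was that 1, with a signal of 85.5 with Phf21a siRNA and 159 with control siRNA (-0.90 ± 0.62). Nr1d2, which encodes REV-ERB beta, had 937 with Phf21a siRNA and 1226 with control siRNA (-0.39 ± 0.49), and its second probe set was at -0.45. Both REV-ERB genes read lower in the Phf21a siRNA array, Nr1d1 alone by more than its spread.

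Rora encodes the activating receptor that shares sites with the REV-ERBs. Its brightest probe set had 101 with Phf21a siRNA and 73.1 with control siRNA (0.46 ± 0.64). Under poly-A scaling the gene was at -0.27. Of its 9 probe sets 2 passed the detection limit on both arrays, the second at 0.83, and 3 passed it on the Phf21a siRNA array alone, which fixes them above 0. The 4 undetected ones went both ways, 1436325_at being at 0.70, 1458145_at at 0.65 and 1441085_at at -0.12, while 1424035_at had 12.0 with Phf21a siRNA and 21.7 with control siRNA. Rorb was undetected on its 3 probe sets. Npas2, which can stand in for Clock, was under the floor on both arrays on its 2 probe sets. Arntl2, a relative of Arntl, gave -0.34 on its brightest probe set but 0.50 on the other. Timeless gave -0.33 and, on its other probe set, -0.54, while Tipin gave -0.09, a pair of genes whose proteins act at replication forks.

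The detected clock output genes were above 0 on their brightest probe sets under the deposited scaling. Of 8 listed 7 were detected, and all 7 had a log2 ratio above 0 on their brightest probe set, against 52.2% of all detected genes. Their median was 0.34. With the mean over probe sets 6 of 7 were above 0, against 49.4% of all, and without suffixed probe sets 5 of 6, against 50.6%. Under poly-A scaling 1 of 8 was above 0, against 9.23% of all, and under hybridisation scaling 5 of 8, against 33.95%. Hlf was among the 8 detected there. Under either scaling 7 of 8 lay above the median of all detected genes. At 1.5-fold, 1 was higher and 0 were lower. The 1 was Usp2, a deubiquitinating enzyme with rhythmic expression, at 113 with Phf21a siRNA and 67.3 with control siRNA (0.74 ± 0.64). Its other probe set was undetected, and under poly-A scaling the gene was at 0.007. Noct, a rhythmic phosphatase of nicotinamide cofactors linked to adipogenesis, had 1628 with Phf21a siRNA and 1166 with control siRNA (0.48 ± 0.47), and -0.25 under poly-A scaling. The other values lay within the local spread.

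Dbp, an activator at D-boxes and a direct E-box target, gave 0.43 ± 0.56 on its brightest probe set but -0.12 on the other. Its relative Tef gave 0.12 on the brightest of 3 probe sets. Another, 1438033_at at -0.37, passed the detection limit on the control array alone, which fixed its direction. Hlf was undetected on both of its probe sets. On 1434735_at it had 4.33 with Phf21a siRNA and 40.5 with control siRNA, and on 1434736_at 4.92 and 49.4. Both Phf21a siRNA values were under the floor, so no ratio is given, and the control value of 49.4 lay just under the detection limit. With no filter on low signals 7 of the 8 output genes were above 0 and 1 below, against 43.3% of all above 0. Nfil3, the repressor at D-boxes, was at 0.26. Wee1, a kinase that delays mitosis, gave 0.34 and, on another probe set, 0.10, whereas Nampt, the enzyme that makes the NAD precursor, was at 0.13 with 3 probe sets up to 0.51.

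**Figure D4:**
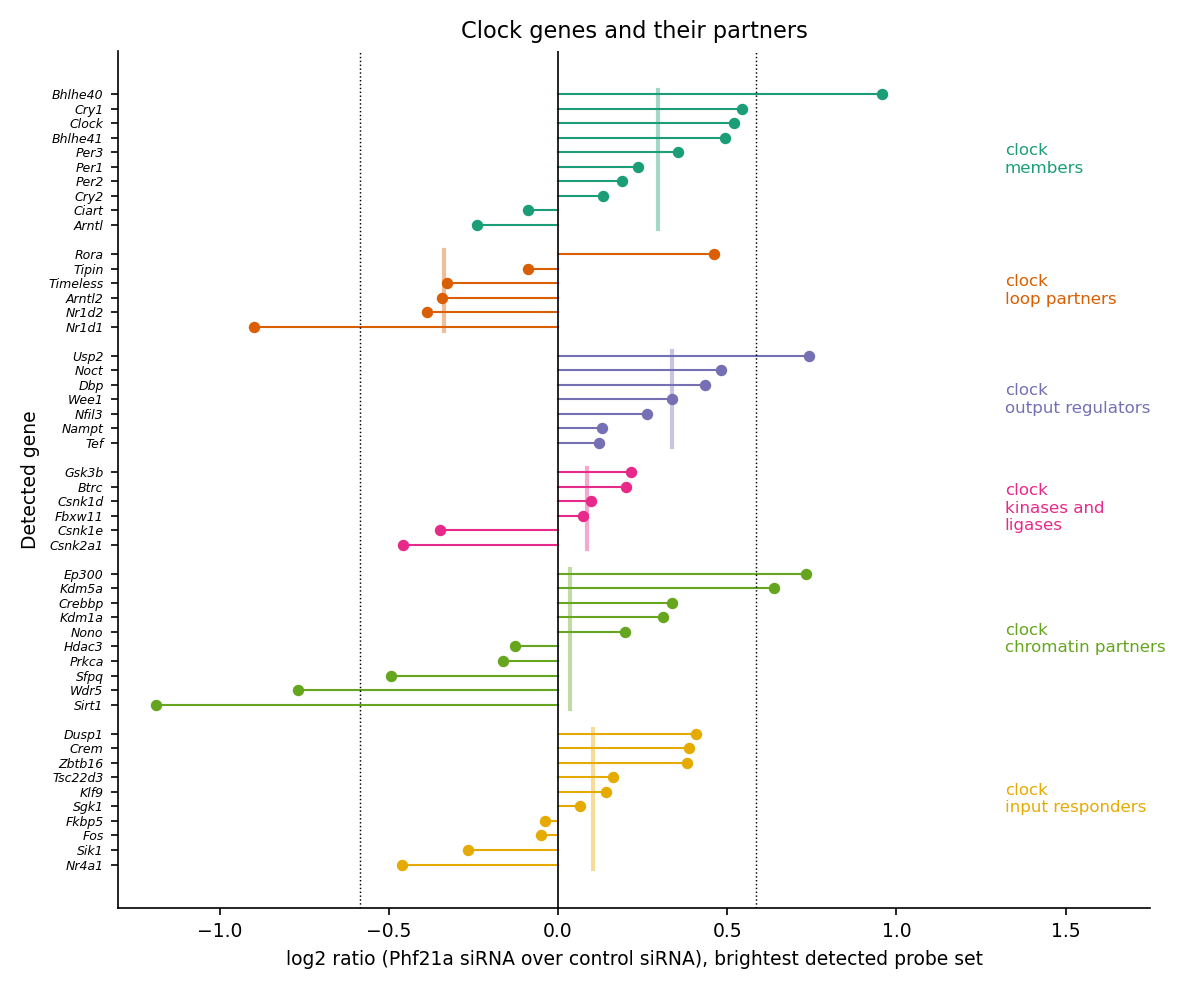
Log2 ratio (Phf21a siRNA over control siRNA) on the brightest detected probe set of the clock genes and of 5 lists of partners, sorted within each list, with the list's median as a thick vertical line and dotted lines at 1.5-fold. The median is 0.30 for the clock genes, -0.34 for the partners in and around the side loop and 0.34 for the output genes, against -0.44, -1.07 and -0.44 under poly-A scaling.

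Kinases and ubiquitin ligases that set the life of PER and CRY proteins lay within 1.5-fold. Of 8 listed 6 were detected, and at 1.5-fold 0 were higher and 0 lower. Their median log2 ratio was 0.08, with 4 of 6 above 0, against 52.2% of all detected genes. Under poly-A scaling 0 of the 6 genes were above 0, against 9.23% of all, and under hybridisation scaling also 0, against 33.95%. In either case 4 of the 6 lay above the median of all detected genes. Csnk2a1, a catalytic subunit of casein kinase 2, was lowest at -0.46 ± 0.45, with 5 of its 6 probe sets below 0, down to -0.75. Gsk3b, a kinase of several clock proteins, was highest at 0.21 ± 0.45, with all 6 probe sets above 0, up to 0.65, though its brightest was at -0.01 under hybridisation scaling and -0.52 under poly-A scaling.

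Genes listed as chromatin partners of the clock went both ways. Of 11 listed 10 were detected, with a median of 0.03, and at 1.5-fold 2 were higher and 2 lower. Ep300, a histone acetyltransferase and coactivator, had 954 with Phf21a siRNA and 574 with control siRNA (0.73 ± 0.52), a direction lost under poly-A scaling (-0.0032). Kdm5a, a histone demethylase that assists the activators, was at 0.64 ± 0.49, and at -0.10 under poly-A scaling. Of its other detected probe sets, 1452360_a_at was at 0.39 and 1437106_at at -0.17. Its probe set 1441318_at, at -0.59, passed the detection limit on the control array alone, which fixed its direction. With the mean over all 4 detected probe sets, that one included, the gene was at 0.07. Sirt1, a deacetylase that depends on NAD, had 194 with Phf21a siRNA and 441 with control siRNA on its only probe set (-1.19 ± 0.57). Wdr5, a subunit of histone methyltransferases, was at -0.77 ± 0.48 and at -1.11 on its second probe set. Kdm1a, which encodes LSD1 and whose protein also joins CLOCK and BMAL1 at E-boxes, was at 0.31 ± 0.40. Over all 4 partner lists, 29 genes were detected, their median was 0.12, and at 1.5-fold 3 were higher and 3 lower.

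Genes that respond to resetting signals of the clock lay within 1.5-fold. The 10 listed responders to glucocorticoid or cyclic AMP, among them Fkbp5, Tsc22d3, Sgk1 and Nr4a1, were all detected under the deposited scaling. At 1.5-fold 0 of them were higher and 0 lower, and the log2 ratios ran from -0.46 to 0.41 with a median of 0.10, which was -0.63 under poly-A and -0.12 under hybridisation scaling. Per1 at 0.24 lay within that range and Bhlhe40 at 0.96 outside it.

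The siRNA target and the cells were checked on the same arrays. Phf21a was at 306 with Phf21a siRNA and 768 with control siRNA (-1.33 ± 0.52) on its brightest probe set. Of the 7 adipogenic genes with a probe set 6 were detected, and at 1.5-fold 2 were higher and 1 lower. Dlk1, a preadipocyte gene that falls as fat cells form, had 5940 with Phf21a siRNA and 12290 with control siRNA (-1.05 ± 0.29). Fabp4, a fatty acid carrier, had 5849 with Phf21a siRNA and 3502 with control siRNA (0.74 ± 0.37). Pparg, the nuclear receptor that drives adipogenesis, had 814 with Phf21a siRNA and 512 with control siRNA (0.67 ± 0.52), but was at -0.07 under poly-A scaling, where Fabp4 was at 0.0041. Cebpb, Cebpd and Lpl were within their local spread on their brightest probe sets. Another Cebpd probe set (1456605_at, -2.01 ± 0.91) passed the detection limit on the control array alone, which fixed its direction. Cebpa, which rises later in adipogenesis, was undetected at 12.0 with Phf21a siRNA and 45.0 with control siRNA. Leukocyte markers were detected in 6 of 10 cases. Cd68 (0.89), Csf1r (1.18, but 0.53 as the mean over its probe sets) and Cd14 (0.75) passed 1.5-fold upward. Under poly-A scaling Cd68 was at 0.16, Csf1r at 0.44 and Cd14 at 0.01. Fcer1g (higher) and Laptm5 (lower) passed the detection limit on 1 array alone, which fixed their direction. The list had summed signals over 17 probe sets of 1919 with Phf21a siRNA and 1261 with control siRNA. The defining markers Ptprc, Tyrobp and Cd52 were under the floor on both arrays. Endothelial markers were detected in 0 of 5 cases, and muscle markers in 3 of 5, Acta1 at -0.80 among them, with summed signals of 229 with Phf21a siRNA and 393 with control siRNA. The part of these cell markers in the clock values was not tested, and fewer cells of a type cannot be told apart from less RNA per cell in such bulk samples.

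Whether most clock genes read above or below equal depended on what the arrays were scaled to. Bhlhe40 stayed above 0, and Arntl and Ciart below 0, under every setting that held them. Bhlhe40 and Ciart had 1 detected probe set each, so changes of floor, detection or probe set choice could hardly move them. Both control scalings lowered all ratios, so neither could bring Arntl or Ciart above 0. The value of Ciart, -0.09 ± 0.56, lay well within its local spread, and its direction is not established by these settings. The deposited scaling makes the arrays equal in their trimmed mean. Scaling to the poly-A control RNAs shifted the median of all detected genes by -0.77 and gave a clock gene median of -0.44. Scaling to the hybridisation controls shifted the median of all genes by -0.24 and gave a clock gene median of 0.07. Relative to the median of all detected genes, the clock gene median was 0.27 as deposited, 0.30 under poly-A scaling and 0.28 under hybridisation scaling, with 8 of 10 genes above that median under each. Control scaling divides the Phf21a siRNA array by a single factor, which cancels when the median of all genes is subtracted. These values therefore had to be nearly equal, apart from effects of the floor and detection limit, and their likeness is no sign of stability. With the mean over probe sets the clock gene median relative to all genes was 0.16, with 6 of 10 genes above. With detection at the 75th percentile it was 0.47, with 4 of 5. Bhlhe40 stood 0.85 to 0.96 above the median of all detected genes under all 12 settings, and Arntl stood 0.24 to 1.02 below it under the same 12. Ciart was below it in all 11 settings that held the gene. Per2 and Per3 were above it in 10 of 11 settings each, the exception being the mean over probe sets. For Arntl the value of 1.02 rests on its dim probe set alone, whose direction the detection filter fixed. The mean for Per3 includes a probe set of the same kind.

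**Figure D5:**
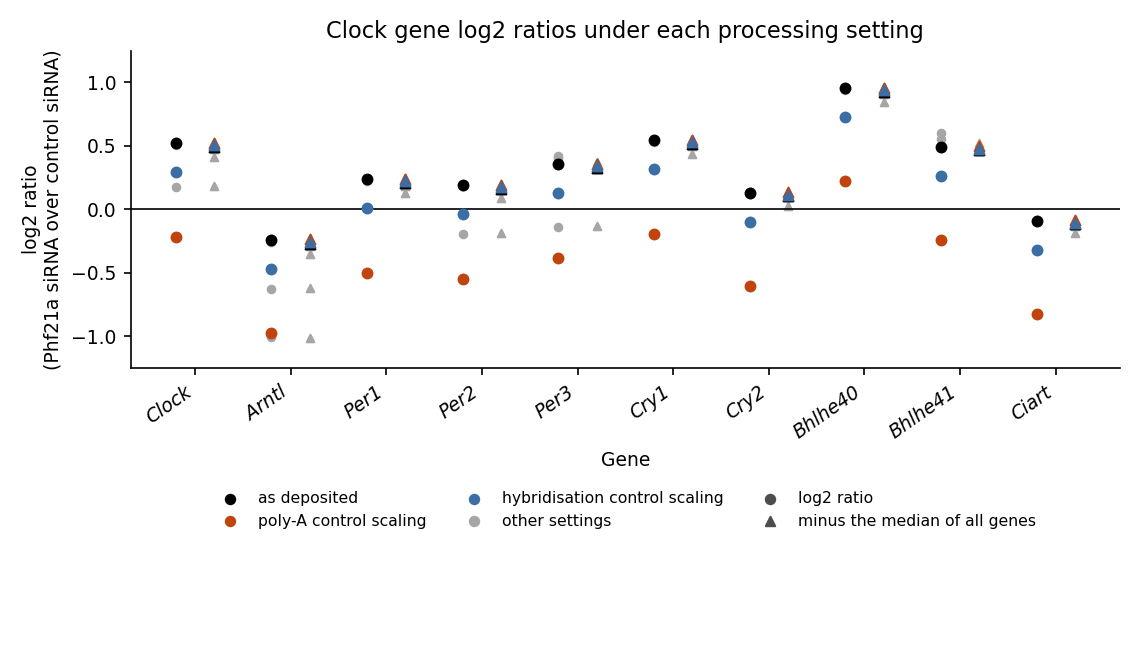
Log2 ratio (Phf21a siRNA over control siRNA) of each clock gene under every processing setting, as circles, and the same value minus the median of all detected genes under that setting, as triangles. The circles of the poly-A and hybridisation control scalings lie lower for all 10 genes, while the triangles of these scalings nearly coincide with those of the deposited values. They had to, because each of these scalings divides the Phf21a siRNA array by a single factor, which cancels in the triangles.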

How the data were processed

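Signals of differentiating 3T3-L1 cells were measured on 1 array for Phf21a siRNA and 1 for control siRNA, and the sample descriptions gave the groups. The deposited file holds linear signal intensity that the authors computed with MAS5, per the submitters' processing notes, with its version not given in the sources used here. After trimming 2% of values at either end, each array had a mean of 500, so the arrays had been scaled to equal trimmed means, which hides any change in total messenger RNA. MAS5 subtracts mismatch signals, which makes low values noisy. The number of arrays limits the precision.

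Of 45101 probe sets, 64 controls, 932 with several genes and 9160 with none were not used for genes. Symbols came from the array's annotation table, and all 10 members were found by Entrez number in a RefSeq gene table with 0 symbols changed. Signals were raised to a floor, the 25th percentile (12.9), before log2, and no ratio is given where a member's signal lay under it. A gene was represented by its brightest probe set by mean log2 signal among those detected, leaving out _x_at where another existed. The local spread is the distance from the 16th to the 84th percentile of log2 ratios, divided by 2. The members, lists and alternatives were chosen with earlier results of these data known, so none is independent support. Every member is named with all its probe sets. The rule further named the detected output genes and the detected partners in and around the side loop. In the kinase, chromatin and responder lists it named genes at least 1.5-fold apart. Csnk2a1, Gsk3b, Kdm1a, the cell type markers given with values and the responders Fkbp5, Tsc22d3, Sgk1 and Nr4a1 were named after their values were seen. With 2 arrays no genes of like pattern were sought. The procedure was tested on simulated data with changes planted only in bright probe sets and larger than those of the clock genes. That test therefore does not cover small ratios or dim probe sets. Python 3.11.15 was used with numpy 2.4.6, pandas 2.3.3, statsmodels 0.14.6 and matplotlib 3.10.9.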

Additional observations from a re-analysis of the deposited data

How the results depend on the processing

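No paired analysis was possible because each group held 1 array, and no array could be left out. Over 11 alternatives, 93 of 104 single-gene log2 ratios moved by less than the local spread. Of the 11 that moved further, 10 came from poly-A scaling, and the other was Arntl at -1.01 without suffixed probe sets (_x_at, _s_at, _a_at), which leaves its dim probe set. Many of the 93 could not have moved. Changes of floor, detection limit or probe set choice leave a value as it was where the same bright probe set is kept. The share of 93 in 104 is therefore no measure of robustness. Of 11 changes of sign, 7 came under poly-A scaling, 2 under hybridisation scaling and 2 with the mean over probe sets. The count of clock genes at least 1.5-fold higher, 1 as reported, was 2 after loess and 0 under poly-A scaling and at the 2-fold and 3-fold cutoffs. The count at least 1.5-fold lower, 0 as reported, was 3 under poly-A scaling and 1 both with the mean over probe sets and without suffixed ones. That 1 was Arntl in both cases, through its dim probe set, whose direction the detection filter fixed. The median, 0.30 as reported, was -0.44 under poly-A scaling, 0.07 under hybridisation scaling, 0.15 with the mean over probe sets and 0.52 over the 5 genes detected at the 75th percentile. Of the partner genes, reported as 3 higher and 3 lower, 0 were higher and 17 lower under poly-A scaling, and 0 and 7 under hybridisation scaling. They were 0 higher and 1 lower at 2-fold, and 0 and 0 at 3-fold, where the stricter cutoff itself is the cause. With detection at the 75th percentile, which tests fewer genes, 1 was lower. After loess, 22.6% of all genes were at least 1.5-fold higher and 11.2% lower, against 15.1% and 13.9% as deposited. Under poly-A scaling these were 2.12% and 61.9%, and under hybridisation scaling 8.46% and 24.2%. The cause of the shift under control scaling was not tested. Low signal limits Per3 and Bhlhe41 most.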
